A study of Homo sapiens with 8 samples.

Results

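The ephrins and Eph receptors described here are the 10 genes EFNA1, EFNA3, EFNA4, EFNA5, EFNB1, EFNB2, EPHA2, EPHA4, EPHB2 and EPHB4. Every probe set that the platform annotation gives to one of them was used, which made 29 probe sets of 9 genes, out of 45253 probe sets and 18239 genes with a single symbol. EPHB2 was not analysed here. The 10 genes were chosen with the TNF-α and BSA levels of these same arrays in view, so the values of the members are a description and carry no test. The treated cells were NS-SV-AC, a human line immortalised from salivary gland acini, treated with 20 ng/ml of TNF-α for 2, 6, 12 or 24 h. The control cells were the same line given bovine serum albumin (BSA) for the same 4 times. There was 1 array per treatment and time, 8 in all, and no replicate, so no spread between replicates stands beside any value. Both treatments used this 1 immortalised line.

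Eph receptors are receptor tyrosine kinases that read ephrins on the surface of the neighbouring cell. A-type ephrins are held in the membrane by a lipid anchor, while B-type ephrins cross it and have a tail inside the cell, and binding sends signals into both cells, forward through the receptor and in reverse through the ephrin. In epithelia the pair of ephrin-A1 and EphA2 is known for its work at cell contacts, where ligand binding lowers the spreading and migration of the cells. EFNA1 was first described as a gene that TNF-α induces in endothelial cells, and the RefSeq gene table still lists TNFAIP4, for TNF-α-induced protein, among its synonyms.

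The sequences before the start of 3 genes are shown because the data separate them: EFNA1, which was far higher with TNF-α, EPHA2, the receptor that was higher at 2, 6 and 12 h, and EFNA3, the neighbour of EFNA1 on chromosome 1, whose probe sets stayed close to BSA. Each is the 250 bases before the RefSeq start in GRCh38.p14, 5′ to 3′ on the gene's strand. Capitals mark the GC box (GGGCGG, either strand) and, in EPHA2, the cyclic AMP response element (TGACGTCA).
EFNA1, chr1:155127626-155127875, plus strand: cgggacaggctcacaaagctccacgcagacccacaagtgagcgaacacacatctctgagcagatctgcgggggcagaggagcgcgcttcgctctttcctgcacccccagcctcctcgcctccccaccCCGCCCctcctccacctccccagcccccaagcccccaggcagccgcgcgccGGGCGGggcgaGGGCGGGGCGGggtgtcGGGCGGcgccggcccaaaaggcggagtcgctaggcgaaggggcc
EPHA2, chr1:16156070-16156319, minus strand: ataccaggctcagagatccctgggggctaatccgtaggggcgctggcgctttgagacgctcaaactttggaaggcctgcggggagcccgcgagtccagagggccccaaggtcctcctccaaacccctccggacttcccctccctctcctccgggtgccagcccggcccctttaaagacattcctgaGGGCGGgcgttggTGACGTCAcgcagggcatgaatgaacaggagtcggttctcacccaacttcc
EFNA3, chr1:155078587-155078836, plus strand: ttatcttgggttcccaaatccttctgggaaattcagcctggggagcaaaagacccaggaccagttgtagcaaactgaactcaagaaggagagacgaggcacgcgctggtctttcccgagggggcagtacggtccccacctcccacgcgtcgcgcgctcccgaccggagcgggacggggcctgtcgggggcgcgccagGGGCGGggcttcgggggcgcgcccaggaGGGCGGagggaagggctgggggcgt

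EFNA1 held 5 GC boxes in this window, 2 of which share a base, EFNA3 held 2 and EPHA2 held 1. The GC box was found before all 10 genes of the rule, and in 42.6% of 34786 RefSeq windows of the same length. The cyclic AMP response element was found before 1 of the 10, EPHA2, and in 1.64% of all windows. The κB motif that NF-κB binds, searched on both strands, was in 9.96% of all windows and in none of the 10 genes' windows. AP-1 (TGANTCA, both strands, 6.59% of windows) and TATAAA (gene strand, 6.84%) were also found before none of the 10, and CCAAT (both strands, 32.0%) was found before 5 of the 10 genes. The 10 genes had 12 windows, and a gene was counted if any of its windows held the motif, while the shares are per window. A match or its absence describes only these letters in these windows. The GC box, CCAAT and cyclic AMP motifs were added after the sequences had been seen.

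Values are log2 RMA levels of single probe sets, and differences are TNF-α minus BSA at the same time. The treatment label was checked on 3 textbook targets of NF-κB, NFKBIA, TNFAIP3 and ICAM1. By their brightest probe sets they were at least 2-fold higher with TNF-α at each of the 4 times. The dimmest ICAM1 probe set was 0.54 higher at 24 h, short of 2-fold. The TNF-α array at 24 h stood apart. The 3′ control probe set of GAPDH read 6.28 above the 5′ one there, against 0.20 to 0.37 on the other 7 arrays, and its mean correlation with the other arrays across genes was 0.925, against 0.968 to 0.978. Across all genes the median difference was 0.20 at 24 h and −0.02 to 0.00 at the earlier times. The BSA array at 24 h was also unlike the earlier arrays, though less so. Its 3′ control probe set of ACTB read 10.64, against 12.07 to 12.24 on the arrays up to 12 h. Its mean correlation, 0.968, was the lowest of the other 7. Values at 24 h are given with these limits, and the part of either array in them was not tested. Of 8 measured acinar markers, 6 (AQP5, MUC7, LPO, BHLHA15, STATH and HTN1) stayed under the median of all probe sets, 4.35, on all 8 arrays. Of 8 epithelial markers 4 (KRT19, KRT14, KRT7 and EPCAM) did the same. The summed level of these 8, as log2, was 8.12 to 10.7 with TNF-α, lowest at 24 h, and 10.1 to 10.9 with BSA. As another limit of the label, 3 of 5 fibroblast markers (COL3A1, DCN and LUM) lay above the upper quartile, 6.42, on every array. Also above it on every array were 1 of the 8 epithelial markers, KRT18, and 1 of the 8 acinar markers, SLC12A2. Of the remaining fibroblast markers, COL1A1 stayed under the median of all probe sets on all 8 arrays, and PDGFRA read 4.29 to 4.85. The epithelial keratin KRT8 read 8.59 to 8.91 up to 12 h, and at 24 h 2.72 with TNF-α and 6.37 with BSA. In bulk RNA a smaller number of cells of one type and less RNA per cell cannot be told apart. The part of the 24 h arrays in these KRT8 levels was not tested.

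Among the ephrin ligands, EFNA1 was the gene with by far the widest difference. Its brighter probe set read 11.11, 10.38, 7.92 and 5.83 with TNF-α at 2, 6, 12 and 24 h, and 5.72, 5.92, 5.79 and 5.32 with BSA. The TNF-α level was thus highest on the first array and lower on each later one, while the 4 BSA arrays lay within 0.60 of each other. The differences were 5.38, 4.46, 2.14 and 0.51, which are 41.8-fold, 22.0-fold, 4.40-fold and 1.43-fold. At 24 h the TNF-α level lay inside the range of the 4 BSA arrays. Put in order, the TNF-α arrays at 2, 6 and 12 h came first, followed by BSA at 6 h, TNF-α at 24 h, and BSA at 12, 2 and 24 h. With no replicates, the spread between neighbours in that order is unknown.

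The dimmer EFNA1 probe set ran the same course at a lower brightness. It read 8.51, 8.18, 5.30 and 3.89 with TNF-α, and 3.80, 3.82, 3.96 and 3.87 with BSA. Its differences were 4.71, 4.36, 1.35 and 0.02. On both probe sets the TNF-α arrays at 2, 6 and 12 h lay above all 4 BSA arrays. The probe sets differed most at 12 h, where the brighter one gave 4.40-fold and the dimmer one 2.54-fold.

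The differences of EFNA1 stood near the top of all genes at first. Among 18239 genes it had rank 5 at 2 h, rank 14 at 6 h, rank 76 at 12 h and rank 3965 at 24 h, counted from the highest difference. At 2 h 0.493% of all genes were at least 2-fold higher with TNF-α, at 6 h 1.38%, at 12 h 1.29% and at 24 h 6.1%. Of the 9 measured members 1, EFNA1, was that much higher at 2, 6 and 12 h by its brighter probe set, and 2, EFNA5 and EPHA4, at 24 h. No member was at least 2-fold lower at any time, where the share over all genes was 0.0439%, 0.384%, 0.839% and 6.67% at 2, 6, 12 and 24 h. The rule used these same levels, so nothing is read from these counts.

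**Figure D1:**
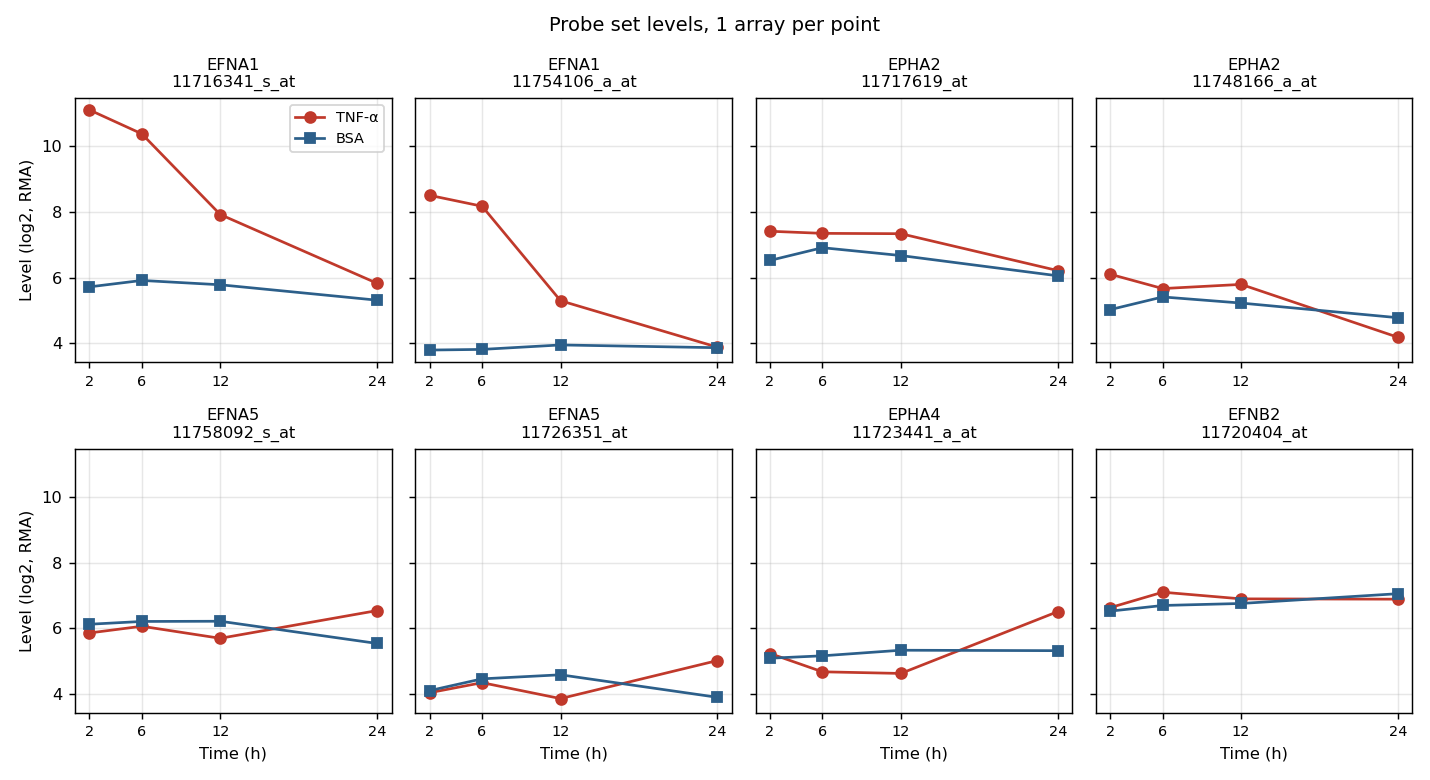
Levels of 8 member probe sets (log2 RMA) against hours of treatment, with TNF-α as red circles and BSA as blue squares, 1 array per point. Both EFNA1 probe sets start far above BSA at 2 h and are 0.51 and 0.02 above it at 24 h. Over the TNF-α arrays they go from 11.11 to 5.83 and from 8.51 to 3.89.

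EFNA3 and EFNA4, the A-type ephrins next to EFNA1 on chromosome 1, did not share its course. EFNA4 read 5.32, 5.46, 5.61 and 5.30 with TNF-α and 5.16, 5.83, 5.52 and 4.89 with BSA, and the groups overlapped. The brightest of 5 EFNA3 probe sets read 5.08, 5.12, 4.88 and 4.98 with TNF-α and 4.92, 5.13, 4.85 and 4.58 with BSA. Over all 5 EFNA3 probe sets the differences at 2, 6 and 12 h ran from −0.20 to 0.16, and 4 of the 5 stayed under the median of all probe sets on every array. In the order of measured genes along the chromosome EFNA3 is the gene before EFNA1 and EFNA4 the one before that. The 10 measured genes nearest to EFNA1, 5 on each side, differed by −0.16 to 0.24 at 2 h, −0.37 to 0.21 at 6 h and −0.34 to 0.35 at 12 h. EFNA1 with 5.38 at 2 h was thus far outside the range of its neighbours. At 24 h 1 of the 10, SLC50A1, a sugar transporter, differed by −3.18 on the array that stood apart, and the others lay within −0.30 and 0.41. These neighbours were taken by position, after the values had been seen.

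EFNA5, an A-type ephrin known for guiding axons, was slightly lower with TNF-α at the early times and higher at 24 h. Its brightest probe set read 5.86, 6.07, 5.70 and 6.54 with TNF-α and 6.13, 6.21, 6.22 and 5.54 with BSA. The 3 TNF-α arrays up to 12 h all lay below the 3 BSA arrays, and the 24 h arrays lay the other way round. The differences were −0.27, −0.15, −0.52 and 1.0. A second probe set gave −0.06, −0.12, −0.72 and 1.12, and the third, under the median of all probe sets on every array, gave 0.07, 0.01, 0.15 and 0.21. The change of sign thus rests on the 24 h pair.

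The B-type ephrins stayed close to BSA. EFNB2, the ligand of EphB4 known from the border of arteries and veins, read 6.63, 7.10, 6.90 and 6.89 with TNF-α and 6.53, 6.70, 6.76 and 7.06 with BSA on its brightest probe set. The widest difference of its 4 probe sets was 0.56, at 6 h, where the brightest gave 0.40; the other 2 gave 0.02 and 0.05. EFNB1, a B-type ephrin of boundaries in the developing skull, had 3 probe sets, all under the median of all probe sets on every array. Their differences ran from −0.08 to 0.35. For EFNB1 the low brightness limits what a difference can show.

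Among the receptors, EPHA2, which binds ephrin-A1, was moderately higher with TNF-α up to 12 h. Its brighter probe set read 7.42, 7.35, 7.34 and 6.22 with TNF-α and 6.53, 6.91, 6.68 and 6.06 with BSA. The TNF-α arrays at 2, 6 and 12 h stayed within a narrow band above all 4 BSA arrays, and both arrays at 24 h were the lowest of their treatment. The differences were 0.89, 0.44, 0.66 and 0.16, that is 1.85-fold, 1.35-fold, 1.59-fold and 1.12-fold.

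The dimmer EPHA2 probe set read 6.11, 5.67, 5.80 and 4.19 with TNF-α and 5.03, 5.42, 5.23 and 4.78 with BSA. Its differences were 1.07, 0.25, 0.57 and −0.60. At 2 h this probe set was thus past 2-fold, and the brighter one was not. The probe sets had the same sign at 2, 6 and 12 h and opposite signs at 24 h. The difference of the brighter probe set ranked 100 of 18239 from the highest at 2 h, 780 at 6 h and 416 at 12 h. The EFNA1 difference was smaller at each later time, while that of EPHA2 was smallest at 6 h among the first 3 times on both probe sets.

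EPHA4, a receptor for both A-type and B-type ephrins, was lower with TNF-α at 6 and 12 h on its brightest probe set and higher at 24 h. That probe set read 5.24, 4.68, 4.63 and 6.51 with TNF-α and 5.09, 5.17, 5.34 and 5.32 with BSA. The BSA arrays lay within 0.24 of each other, and the TNF-α array at 24 h was the highest of the 8. Its differences were 0.14, −0.49, −0.71 and 1.19. The other 3 probe sets gave −0.22 to 0.15 up to 12 h and 0.15, 0.33 and 0.57 at 24 h. The size at 12 h thus rests on 1 of 4 probe sets.

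EPHB4, the receptor of ephrin-B2, read 6.49, 6.57, 6.69 and 6.24 with TNF-α and 6.56, 6.74, 6.56 and 6.24 with BSA on its brightest probe set. On that probe set the groups overlapped. Over its 5 probe sets the differences up to 12 h ran from −0.16 to 0.30, and 3 of them stayed under the median of all probe sets on every array. On 1 of these 3 dim probe sets all TNF-α arrays (3.38 to 3.88) lay above all BSA arrays (3.21 to 3.37), with 0.51 at 24 h.

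**Figure D2:**
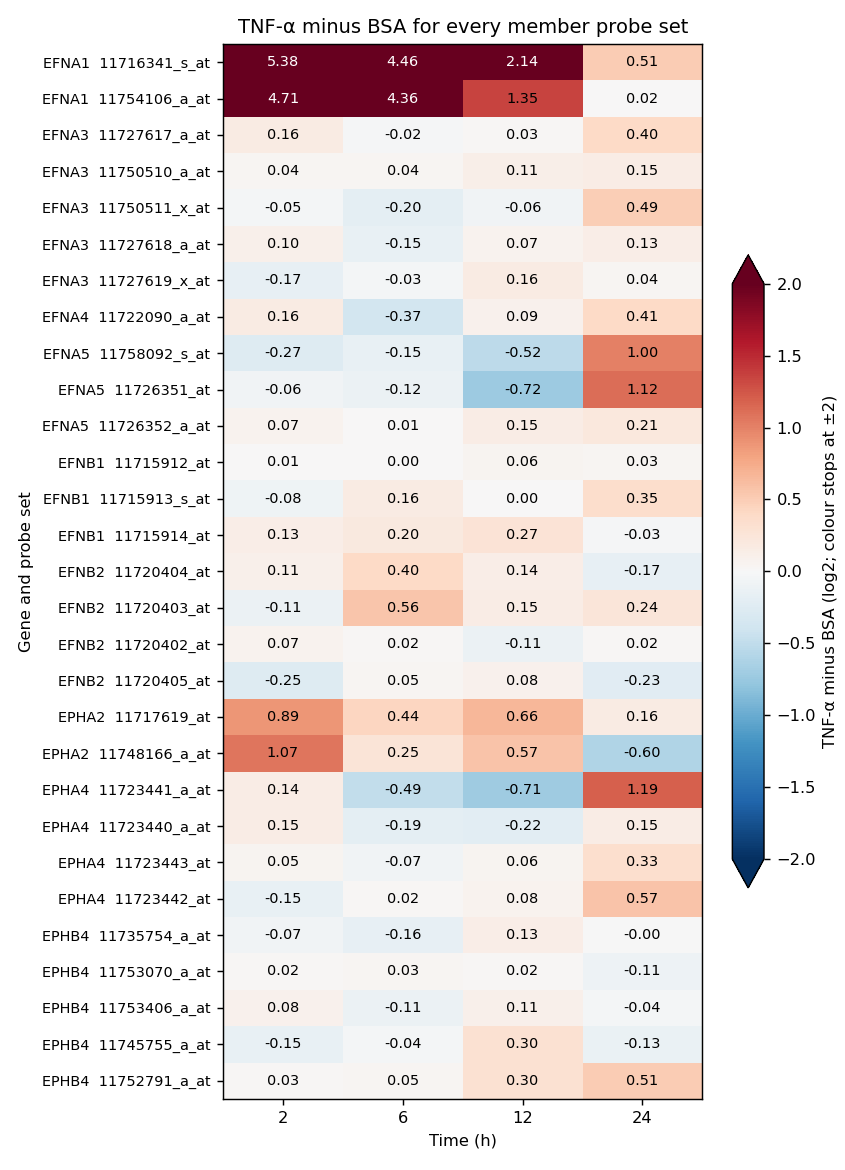
TNF-α minus BSA (log2) for all 29 member probe sets, by gene in rows and by hours of treatment in columns, with red for higher and blue for lower in TNF-α. The EFNA1 rows hold 5.38 and 4.71 at 2 h, EPHA2 follows with 0.89 and 1.07, and the 24 h column holds the positive values of EFNA5 and EPHA4.

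Setting the members side by side, EFNA1 and EPHA2 were the 2 of 9 genes whose TNF-α arrays all lay above the BSA arrays over 2, 6 and 12 h by their brightest probe set, where the share over all genes was 6.18%. EFNA5 was the 1 whose arrays all lay below, where the share was 6.19%. With the 24 h pair included, 0 of 9 lay above or below, against 3.58% and 1.09% of all genes. The other 7 members differed by −0.71 to 0.40 over 2, 6 and 12 h by their brightest probe set. The median difference of the 9 members was 0.14, −0.02, 0.09 and 0.40 at 2, 6, 12 and 24 h, beside −0.02, −0.01, 0.00 and 0.20 over all genes. Of the 29 probe sets 14 stayed under the median of all probe sets on all 8 arrays.

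**Figure D3:**
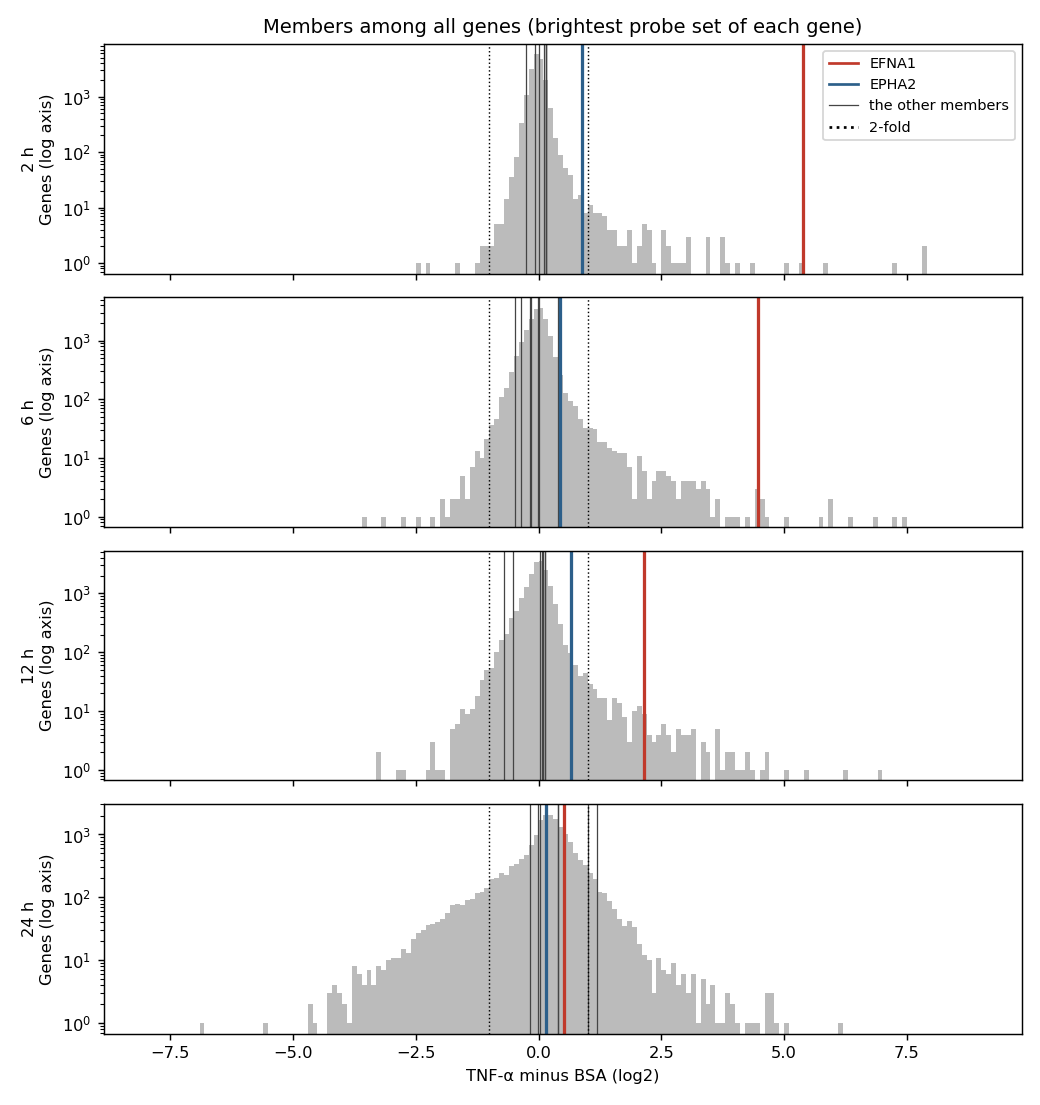
Histograms of TNF-α minus BSA (log2) over 18239 genes at 2, 6, 12 and 24 h, with the number of genes on a log axis. Lines mark EFNA1 (red), EPHA2 (blue), the other 7 members (grey) and the 2-fold limits (dotted). EFNA1 moves inward from 5.38 at 2 h to 0.51 at 24 h, and the histogram is widest at 24 h.

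The 5 genes whose levels over the 8 arrays, each less its own mean, lay nearest to those of EFNA1 by Euclidean distance were CD83, EDN1, IL6, RGS3 and TNFAIP2, out of 18238 searched. The distances were 1.63, 1.70, 1.95, 1.99 and 2.22, where the median over all genes was 6.14. A gene with the same level on all 8 arrays would lie 6.09 from EFNA1, so that median is close to the distance of an unchanging gene. CD83, a surface protein of activated immune cells, was 4.40, 3.23, 2.23 and 0.02 higher at 2, 6, 12 and 24 h. EDN1, the endothelin precursor, was 3.76, 4.27, 3.03 and 0.83 higher, and its second probe set was 2.84 higher at 24 h. IL6, an inflammatory cytokine, was 5.02, 4.49, 2.54 and 2.22 higher by its brightest probe set, while its second was 1.97, 1.54, −0.04 and 0.49. TNFAIP2 was 3.89, 3.94, 2.93 and 0.87 higher, and its other 4 probe sets lay between −0.09 and 0.34 at 24 h. These genes, RGS3 among them, were picked for likeness on the same arrays, so the values are a description.

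**Figure D4:**
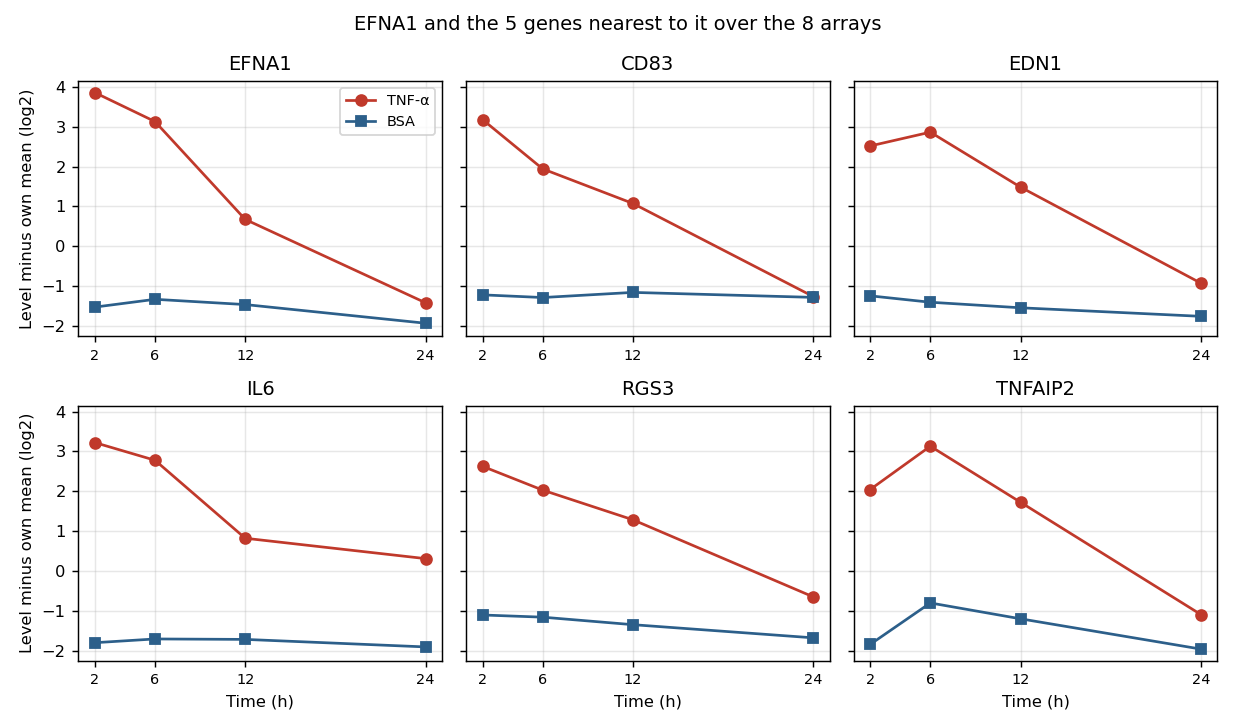
Levels less the gene's own mean over the 8 arrays (log2) against hours of treatment for EFNA1 and the 5 nearest genes, with TNF-α as red circles and BSA as blue squares, 1 array per point. CD83 and RGS3 are highest at 2 h, as EFNA1 is, while EDN1 and TNFAIP2 are highest at 6 h.

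What happened to the rest of the family and to the proteins that work with it? The question was put to genes that are no members, with a limma model of treatment and time fitted to all 18239 genes. Over the 4 pairs of arrays 0.0164% of all genes passed an adjusted p under 0.05, and over the 3 pairs without 24 h 0.367%. At an unadjusted p under 0.05 the shares of all genes were 7.51% and 14.0%. The other 12 ephrins and Eph receptors (EFNA2, EFNB3, EPHA1, EPHA3, EPHA5, EPHA6, EPHA7, EPHA8, EPHA10, EPHB1, EPHB3 and EPHB6) were all measured. By limma 0 of the 12 passed in either fit, and 0 had an unadjusted p under 0.05 in either. At 2, 6 and 12 h their differences by the brightest probe set ran from −0.76 (EPHA3) to 0.21, with 0 at or past 2-fold. Over all 35 probe sets the highest was 0.39, for EPHA8. On all 8 arrays EFNA2, EPHA1, EPHA3, EPHA5, EPHA6, EPHA7, EPHA10 and EPHB6 stayed under the median of all probe sets by their brightest one. For them the low brightness limits what a difference can show. With array weights 2 of the 12 (16.7%) had an unadjusted p under 0.05 by limma, against 13.8% of all genes, and 0 passed. The median difference of the 12 was −0.05, 0.01, 0.04 and 0.09 at 2, 6, 12 and 24 h.

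Of 9 genes whose proteins bind the tails of B-type ephrins, RGS3 stood apart. RGS3 is a regulator of G protein signalling, and one of its forms carries a PDZ domain through which it binds B-type ephrins. Its brightest probe set read 9.03, 8.43, 7.68 and 5.75 with TNF-α and 5.29, 5.24, 5.05 and 4.72 with BSA. The TNF-α level was highest at 2 h and lower at each later time, and all 4 TNF-α arrays lay above all 4 BSA arrays.

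RGS3 was 3.19 ± 0.20 higher over 2, 6 and 12 h (3 pairs, higher in 3 of 3). Over the 4 pairs it was 2.65 ± 0.45 higher (higher in 4 of 4). The ± values are standard errors of the limma fit, which draw on the variance of all genes. They are not the spread between the pairs, whose differences were 3.73, 3.19, 2.63 and 1.03 at 2, 6, 12 and 24 h. Since RGS3 is also 1 of the 5 genes picked for likeness to EFNA1, these differences are given with no test. A second probe set of RGS3 was 3.68, 2.93, 1.55 and 0.21 higher, and the other 2, both dim, lay between −0.14 and 0.27. Which form of RGS3 the probe sets measure was not tested. In the same list PTPN13, a phosphatase with PDZ domains, was −0.23, 0.05, −1.16 and 0.64, PARD6A, a polarity protein, was −0.14, −0.54, −0.33 and −0.58, and GRIP2 was 0.07 to 0.32 over 2 to 12 h. None of these 3 passed in either fit. The median of the 9 genes was 0.07, 0.05, 0.08 and 0.64 at 2, 6, 12 and 24 h, below the values of RGS3 at each time.

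In the lists of forward signalling no gene passed in either fit. Of 17 measured kinases, phosphatases and adaptors, GRB10, an adaptor, was −0.03, 0.85, 0.58 and −0.11, and PIK3R1, the regulatory subunit of PI 3-kinase, was −0.34, −0.31, −0.60 and 0.61. The kinases ABL1 (−0.04, 0.57, 0.56 and −1.62) and ABL2 (0.66, 0.14, 0.03 and −1.46) were lowest against BSA on the 24 h pair by their brightest probe sets. The next brightest of ABL2 was 0.54, 0.34, −0.02 and 0.43, of the opposite sign at 24 h, and the 8 probe sets of PIK3R1 ran from −0.85 to 0.82 at 24 h. The median of this list was −0.05, 0.01, 0.03 and −0.13 at 2, 6, 12 and 24 h. VAV2, an exchange factor recruited by Eph receptors, was −0.02, 0.77, 0.66 and 0.33 by its brightest probe set. The next brightest of VAV2 was −0.29, 0.82, 0.75 and 1.18, and its dimmest was 0.17, 0.25, 0.10 and 0.17. TIAM1, another exchange factor, was −0.14, −0.11, −0.81 and −0.40, and its dimmer probe set was 0.00, −0.21, −0.19 and 0.13.

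In the list of cleavage and turnover 9 of 11 genes were measured and 0 passed in either fit. ADAM17, the protease that also sheds TNF-α, was 0.05, 0.59, 0.63 and −0.92. MMP14, a membrane protease, was −0.05, −0.23, −0.10 and 0.26, and CBL, a ubiquitin ligase, was −0.09, 0.01, −0.22 and 0.65. The next 2 probe sets of CBL were −0.51 and −0.74 at 24 h, the opposite sign. The phosphatase ACP1 was −0.08, −0.02, −0.17 and −0.07 by its brightest probe set, and its next 2 were −0.55 and −1.48 at 24 h. The list's median was −0.05, 0.01, −0.03 and −0.07. Over the 4 lists 49 of 55 genes were measured. By limma 0 passed over the 4 pairs. An unadjusted p under 0.05 was reached there by 4 (8.16%), near the 7.51% of all genes. Without the 24 h pair it was reached by 9 (18.4%), against 14.0% of all genes, and 1 passed the adjusted threshold. That gene was RGS3, whose choice by likeness leaves this call without independent weight. The median of their mean differences over 2, 6 and 12 h was 0.01, beside −0.01 over all genes.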

How the data were processed

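RNA from 8 cultures was labelled with a 3′ IVT kit from 10 ng each, per the labels' protocols. The deposited values are log2 levels of 49386 probe sets, made by the authors with RMA, per the submitters' processing notes. The RMA software version is not given in the sources used here. Medians of the 8 arrays ran from 4.33 to 4.36. No further scaling was applied. Arrays give no read depth, so their number limits the precision.

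Probe sets were named by the platform annotation through Entrez identifiers (18180 of 18242 matched the GRCh38.p14 RefSeq table). Probe sets with several symbols (1327), none (2713) and 93 controls were left out. The probe set with the highest mean stood for a gene. limma 3.58.1 in R 4.3.3 (two-sided, Benjamini-Hochberg over all genes) had treatment and time as terms, with 3 residual degrees of freedom, or 2 without 24 h, and was tested on simulated data. With 1 array per treatment and time, its p-values rest on how much the pairs differ, which holds array noise and real change over time alike. The members and lists were chosen with earlier results of these data known. Named are all members, up to 4 genes per list by mean difference over 2 to 12 h, the 5 nearest to EFNA1 and 3 label checks. The count and median of the list that holds the exchange factors, and some of its genes, are not reported here. Alternatives were other probe set rules, scalings, filters, array weights and left-out pairs. All 10 genes matched the RefSeq promoter table.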

Additional observations from a re-analysis of the deposited data

Results flagged for a closer look

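EFNA5 and EPHA4 changed the sign of their difference between 12 h and 24 h. For EFNA5 the differences were 1.0 at 24 h and −0.52 at 12 h, a span of 1.52, and for EPHA4 1.19 and −0.71, a span of 1.89. Each rests on 1 pair of arrays per time, and the difference between the times was not tested. On the mean of its probe sets EPHA4 gave 0.56 at 24 h and −0.20 at 12 h.

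The control probe sets, which no comparison used, gave a 3′ minus 5′ gap of 6.28 for GAPDH and 6.88 for ACTB on the TNF-α array at 24 h. On the other 7 arrays the gaps were 0.20 to 0.37 and 2.59 to 3.47. On the same array the epithelial keratins KRT8 and KRT18 differed from BSA by −3.65 and −2.48. The other 6 markers of the epithelial list, at levels of 2.83 to 4.78 over the 8 arrays, were higher than with BSA on this array, by 0.17 (KRT14), 0.21 (KRT5 and KRT19), 0.66 (EPCAM), 1.16 (KRT7) and 1.30 (CDH1). The part of this array in the 24 h values of EFNA1, EFNA5, EPHA2 and EPHA4 was not tested.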

How the results depend on the processing

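Centring each array on its median, or quantile normalisation again, moved 0 of the 36 member differences by more than the robust SD of differences over all genes at that time, and the mean of probe sets moved 8. That SD was 0.12 at 2 h and 0.39 at 24 h, so small differences at 24 h could change sign and count as unmoved. At 24 h EFNB2 went from −0.17 to 0.08 after quantile normalisation, and EPHA2 from 0.16 to −0.22 with the mean of probe sets. With that mean the EFNA1 difference was 5.05 at 2 h, and 1.74 at 12 h. The count of members at least 2-fold higher at 24 h, 2 as reported, was 0 with the mean of probe sets and 1 after centring, while the counts at 2, 6 and 12 h were the same in these 3 alternatives. Without the 24 h pair, an alternative added after seeing the data, 2 members had all TNF-α arrays above all BSA arrays and 1 had all below. By limma 3 genes passed over the 4 pairs. The number was 0 without the 2 h, 6 h or 12 h pair, with 1337, 514 and 624 genes at an unadjusted p under 0.05, 67 without the 24 h pair, 1 with the mean of probe sets and 62 with array weights. RGS3, the 1 gene called among the signalling and turnover lists without the 24 h pair (3.19) and with array weights (3.15), was 1.20 higher with the mean of its probe sets. The cause of these shifts was not tested. No paired analysis by replicate number was possible because each treatment and time had 1 array; time was the block in each fit.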
